A study of Mus musculus with 10 samples.

Results

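The 5 miRNAs described here are mmu-miR-32, mmu-miR-301a, mmu-miR-148a, mmu-miR-221 and mmu-miR-222 (mmu for mouse, dropped below), which have been reported to regulate Bim and lie outside the miR-17~92 cluster and its paralogs. They were named for reports on Bim and not by a rule on their counts, though with earlier results of these data known, and each had 1 probe among the 566 mouse miRNA probes of a NanoString nCounter panel. miR-32 and miR-301a were above background in all 10 libraries of both genotypes. miR-148a and miR-222 were above background in no library, and miR-221 was above it in 1 mutant library. Neither detected miRNA differed between the genotypes beyond the spread between libraries.

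The samples were B cell progenitors from C57BL/6 fetal livers at E14.5, transformed in culture with Abelson virus, a retrovirus that carries the v-Abl kinase and lets immature B-lineage cells grow. The study had 5 samples with both Bim alleles mutated in the 3′UTR (Bim3’UTRmut/mut, called mutant 6 to 10) and 5 wild type samples (1 to 5), and all of both groups were transformed with v-Abl. Fetal liver also makes erythroid and myeloid cells, and in such bulk samples fewer cells of a type and less RNA per cell cannot be told apart. The labels do not say which bases of the 3′UTR were changed, nor whether each sample of a genotype had its own embryo, so the p-values measure only how far these samples spread, and some of that may be technical. The column headers number the mutant samples 6 to 10 and the wild type samples 1 to 5, and the labels do not say what this order stands for. If it is a run position, its effect cannot be told apart from that of the genotype.

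Bim, encoded by Bcl2l11, promotes apoptosis by binding pro-survival proteins of the Bcl-2 family and restrains the survival of lymphocyte progenitors. A miRNA guides a silencing complex to target mRNAs, mostly by pairing of its seed, the bases near its 5′ end, with a matching site in the 3′UTR. A mutation of a 3′UTR can change which miRNAs pair with that mRNA, where it alters or makes a site. Whether the miRNAs themselves are present at the same level is a separate question, and it is the one these counts address.

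The mature sequences from RefSeq (GRCm38.p6) are shown because they sort the 5 miRNAs into 4 seed classes and set each beside its relatives on the panel. The panel's names give no arm, and the arm that miRBase assigns to the unlabelled name was taken. Capitals mark the seed, bases 2 to 8, and the sequences run 5′ to 3′.
miR-32: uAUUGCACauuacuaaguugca
miR-25: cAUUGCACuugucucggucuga
miR-363: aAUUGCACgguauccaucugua
miR-301a: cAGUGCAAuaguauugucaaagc
miR-130b: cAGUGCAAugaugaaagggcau
miR-148a: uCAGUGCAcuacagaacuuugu
miR-148b: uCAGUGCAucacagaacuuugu
miR-221: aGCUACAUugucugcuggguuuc
miR-222: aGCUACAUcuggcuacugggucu
miR-32 carries the seed of miR-25, miR-363, miR-367, miR-92a and miR-92b, and so can pair with the same 7-base sites as the miR-92 class of the main Bim-targeting clusters. miR-301a shares its seed with miR-130a and miR-130b. miR-148a shares its seed with miR-148b and miR-152, and miR-221 and miR-222 share theirs with each other and with miR-1928. The miR-301a and miR-148a seeds are nearly the same letters set 1 base apart: the 7 bases CAGUGCA are bases 1 to 7 of miR-301a and bases 2 to 8 of miR-148a. miR-221 and miR-222 match over their first 8 bases and at 11 of 23 positions in all.

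In GRCm38.p6, miR-32 lies on chromosome 4 from 56895272 to 56895293 (minus strand) within the span of Tmem245. miR-301a lies on chromosome 11 from 87113054 to 87113076 (plus strand) within Ska2. miR-148a is on chromosome 6 from 51269829 to 51269850 (minus strand), within the span of the predicted gene Gm38821. miR-221 (19146307 to 19146329) and miR-222 (19146901 to 19146923) are on the minus strand of chromosome X, with 504 bases between their hairpins and no other RefSeq gene spanning either.

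The panel counts barcoded probes one by one after each miRNA is joined to a tag. Mouse miRNA counts summed to between 251192 and 354826 in mutant and between 240469 and 266022 in wild type libraries. A miRNA was called above background in a library when its raw count exceeded the mean + 2 SD of the 8 negative-control probes of that library, a threshold between 90.5 and 127 counts. By that rule 14.7% of mouse probes were above background in all 10 libraries and 71.4% in none. The 10 B-lineage and pan-haematopoietic marker probes were all above background in at least 5 libraries, whereas none of the 18 marker probes of red cell, myeloid, endothelial, hepatocyte, stromal, muscle and neural lineages was, with 5 of 180 values above the threshold. The summed counts of those 18 probes ran from 685 to 1071 in mutant and from 827 to 965 in wild type libraries.

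mmu-miR-32, reported in human tumour cells to repress BIM, was a low but clearly detected miRNA. Its raw counts were 330, 391, 512, 358 and 208 in mutant 6 to 10, against 393, 355, 370, 398 and 283 in wild type 1 to 5. Mutant 8 held the highest and mutant 10 the lowest count of all, the wild type counts fell between them, and the raw means were the same, at 359.8 in both groups. Every count was at least 2.04 times the threshold of its library. After TMM normalisation, which scales libraries to the typical miRNA, miR-32 averaged 341 ± 107 normalised counts in mutant and 383 ± 47.0 in wild type samples (SD, n = 5 each). The log2 fold change, mutant over wild type, was -0.17 (95% interval -0.68 to 0.34; edgeR quasi-likelihood adjusted p = 0.748 over 116 miRNAs). The sign turned to 0.09 without mutant 9 and 10, and it turned positive under housekeeping and positive-control scaling (0.26 and 0.03) and in the fit with no filter (0.05). The housekeeping and positive-control scalings moved the median of all miRNAs to 0.46 and 0.20, and relative to that median miR-32 was at -0.20 and -0.18. With no filter and without mutant 9 and 10, miR-32 stayed positive relative to the median, at 0.08 and 0.07.

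The spread of miR-32 was wider among mutant libraries. Its coefficient of variation was 31.3% in mutant and 12.3% in wild type samples, where the median of the 116 miRNAs was 19.8% and 12.2%. Counting error is 6.93% at its lowest count. In mutant 6 to 10 its normalised counts were 354, 383, 483, 292 and 195, against 317 to 446 among the wild type libraries. Mutant 9 and 10 thus lay below all wild type libraries and mutant 8 above them.

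mmu-miR-301a, of the family that miR-130a and miR-130b belong to, was also clearly detected. Its raw counts were 1102, 968, 1140, 2125 and 1080 in mutant 6 to 10, against 915, 813, 1088, 881 and 1121 in wild type 1 to 5. Mutant 9 stood far above the rest, mutant 8 lay just above the highest wild type count, and the other 3 mutant counts lay within the wild type range of 813 to 1121. Every count was at least 7.17 times the threshold of its library. Normalised counts averaged 1190 ± 315 in mutant and 1030 ± 165 in wild type samples (SD, n = 5 each). The log2 fold change was thus 0.21, with a 95% interval from -0.22 to 0.64 and an adjusted p of 0.654 in edgeR. Without mutant 9, whose normalised count was 1732, the value was 0.08. Without mutant 9 and 10 it was 0.06. Housekeeping scaling, positive-control scaling and the fit with no filter gave 0.75, 0.45 and 0.44, or 0.29, 0.24 and 0.48 relative to the median of all miRNAs fitted, none with an adjusted p under 0.05 in edgeR.

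**Figure D1:**
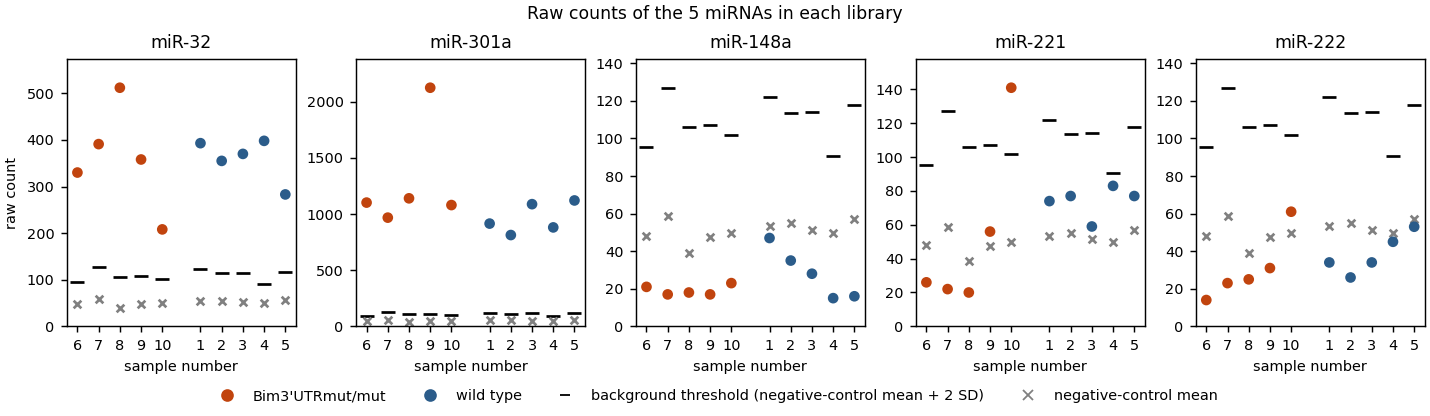
Raw counts (y axis, linear, own range per panel) of the 5 miRNAs in each library, by sample number, with mutant samples 6 to 10 left of wild type samples 1 to 5. Black bars are each library's background threshold and grey crosses its negative-control mean; miR-32 and miR-301a lie above the bars in all 10 libraries, miR-148a and miR-222 in none, and miR-221 in mutant 10.

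mmu-miR-148a, which has been reported in mouse B cells to repress Bim among other pro-apoptotic targets, was not detectable at this depth. Its raw counts were 21, 17, 18, 17 and 23 in mutant 6 to 10, against 47, 35, 28, 15 and 16 in wild type 1 to 5. All 10 counts lay below the mean of the negative controls of their own library, at 0.291 to 0.463 of it in mutant and 0.281 to 0.876 in wild type libraries. The highest wild type counts were above every mutant count, but wild type 4 and 5 were below all of them, so the groups overlapped. A fit of all 566 mouse probes with no filter put the log2 fold change at -0.53 (95% interval -1.19 to 0.12; adjusted p = 0.568 in edgeR), which describes counts at background level. Subtraction of the negative-control mean, with values under 1 set to 1, set all 10 counts to 1. The value of 0.00 that it gave therefore compares nothing.

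mmu-miR-221 and mmu-miR-222 are neighbours that are known to repress the receptor Kit and the cell cycle inhibitor p27. Raw counts of miR-221 were 26, 22, 20, 56 and 141 in mutant 6 to 10, against 74, 77, 59, 83 and 77 in wild type 1 to 5. Mutant 10, at 1.38 times its threshold, was the only library above background, 3 mutant libraries counted lower than any wild type library by a wide gap, and mutant 9 lay just under the wild type range. The wild type counts, all below their thresholds, were 1.15 to 1.67 times the negative-control mean of their library. The counts in mutant 6, 7 and 8 were 0.540, 0.376 and 0.514 times it. The negative controls of these 3 libraries averaged 48.1, 58.5 and 38.9 counts, against 49.6 to 56.9 among the wild type libraries. The part that background played in this difference was not tested.

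The probe for miR-222 gave 14, 23, 25, 31 and 61 raw counts in mutant 6 to 10, against 34, 26, 34, 45 and 53 in wild type 1 to 5, all under the threshold. As with miR-221, mutant 6, 7 and 8 were the lowest of the 10 libraries and mutant 10 the highest. The probes share their first 8 target bases, and the files hold no probe sequences, so cross-binding between them could not be tested. Counting error alone is 22.4% at the lowest miR-221 count and 26.7% at the lowest miR-222 count.

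With no filter, edgeR called 0 of 566 probes (0%), with 49 (8.66%) at an unadjusted p under 0.05, and miR-148a, miR-221 and miR-222 were not among those. miR-221 had a log2 fold change of -0.48, with a 95% interval from -1.68 to 0.71 (adjusted p = 0.803 in edgeR). For miR-222 it was -0.30 (-1.09 to 0.49; adjusted p = 0.813 in edgeR). After subtraction of the negative-control mean, with values under 1 set to 1, they were -0.02 and 1.47. That step set miR-221 to 1 in mutant 6, 7 and 8, and miR-222 to 1 in every library but mutant 10. The value of 1.47 thus rests on 1 library. The values of both miRNAs depend on which mutant libraries are counted. Without mutant 10, miR-221 was at -1.22 (edgeR adjusted p = 0.0861). Without mutant 9 and 10, it was at -1.68 (edgeR adjusted p = 2.45e-05), where 3 of 566 probes passed, or 0.53%, all of them lower in mutant samples. miR-222 was at -0.87 in that fit (edgeR adjusted p = 0.158). The choice of libraries was made with their counts known, and the remaining counts are below the background threshold.

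Across the panel, 116 of 566 probes (20.5%) exceeded background in at least 5 libraries and were tested, and 2 of the 5 miRNAs were among them. Of those 116, 0 (0%) passed an adjusted p of 0.05 in edgeR, with 11 (9.48%) at an unadjusted p under 0.05, none of them miR-32 or miR-301a. DESeq2 called 5 (4.31%) and limma-voom 0, and neither called miR-32 or miR-301a. Normalised counts of the genotypes did not overlap for 2.59% of the 116, and they overlapped for miR-32 and miR-301a. The median absolute log2 fold change was 0.19, so the values of -0.17 and 0.21 lie near the middle of the panel. Together the 5 probes, those at background level included, took 0.587% ± 0.0978 of mouse miRNA counts in mutant and 0.577% ± 0.0449 in wild type samples (SD, n = 5 each). miR-32 and miR-301a alone took 0.553% ± 0.111 in mutant and 0.521% ± 0.0452 in wild type samples.

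**Figure D2:**
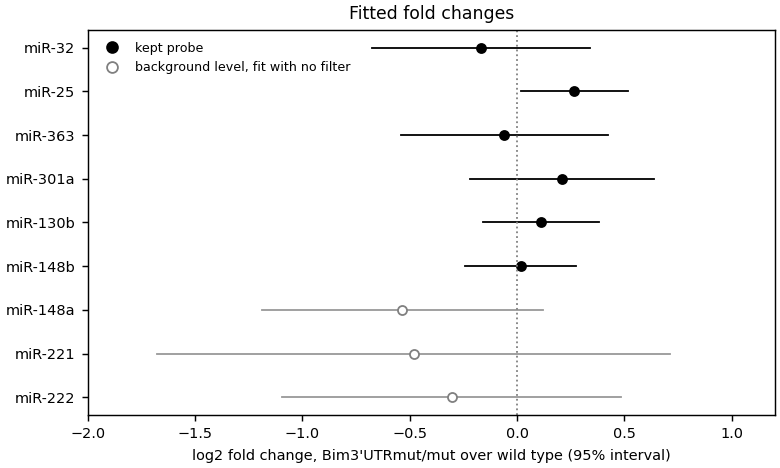
Log2 fold change, mutant over wild type (x axis), with 95% intervals for the 5 miRNAs and their detected seed relatives. Filled points come from the fit of 116 miRNAs and open points, for counts at background level, from the fit with no filter. The intervals of all 5 miRNAs include 0, and of the relatives shown only that of miR-25, 0.02 to 0.52, does not.

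The seed relatives show how much of each seed class was detected by other probes. Counts of different probes depend on the probe as well as the miRNA, so levels of the relatives are set against background and are not ranked. Of 10 relatives matched through RefSeq, 4 were kept, namely miR-25, miR-363, miR-130b and miR-148b. miR-25, of the miR-106b~25 cluster, averaged 8183 ± 1264 normalised counts in mutant and 6802 ± 469 in wild type samples, with a log2 fold change of 0.27 (edgeR adjusted p = 0.373). miR-363 was at 205 ± 51.9 and 214 ± 45.6 (log2 fold change -0.06), and miR-130b at 1846 ± 297 and 1709 ± 108 (0.11), in mutant and wild type samples (SD, n = 5 each). None of the 3 passed.

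In the miR-148a class, detection fell to the relative. miR-148b averaged 274 ± 32.6 normalised counts in mutant and 271 ± 23.7 in wild type samples (SD, n = 5 each; log2 fold change 0.02, edgeR adjusted p = 0.970), and exceeded the threshold in all 10 libraries. Its sequence matches that of miR-148a at 20 of 22 positions. miR-152 counted 42 to 91 in mutant and 62 to 72 in wild type libraries, never above the threshold. The remaining relatives stayed under the threshold in most libraries: miR-92a exceeded it in 1 library, and miR-92b, miR-367, miR-130a and miR-1928 in none. Counts of miR-92a still exceeded the negative-control mean of every library, at 1.78 to 3.16 times it in mutant and 1.46 to 1.95 times it in wild type libraries. miR-301b, another member of the miR-301a family, was added by name after its values were seen. It counted 74, 73, 80, 136 and 86 in mutant 6 to 10, against 62, 43, 67, 53 and 75 in wild type 1 to 5, above the threshold in mutant 9, the library in which miR-301a was highest.

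**Figure D3:**
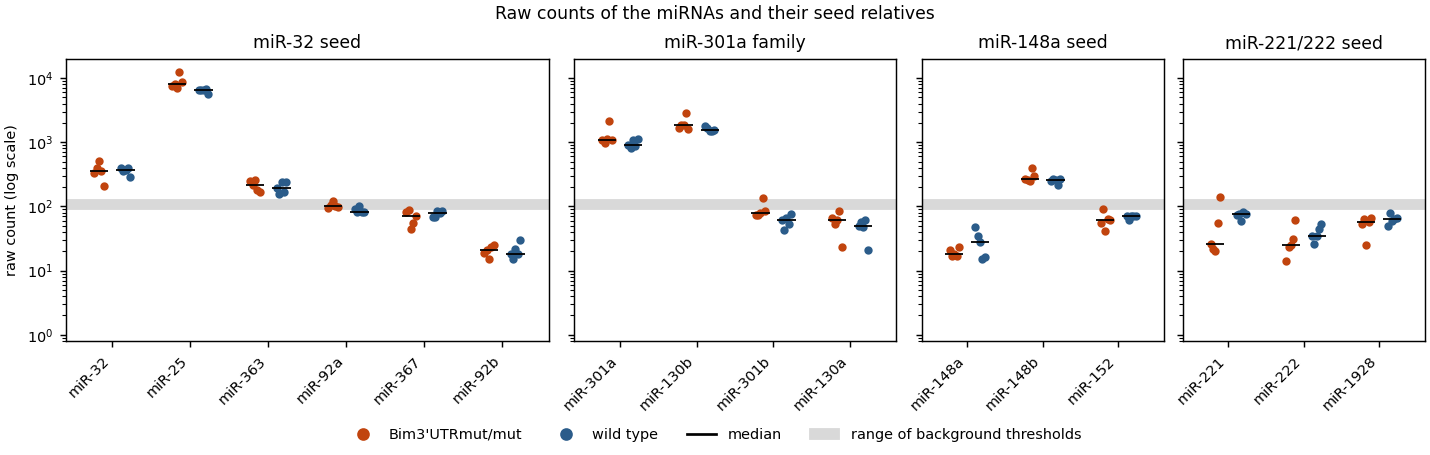
Raw counts on a log axis for each miRNA and its relatives, with mutant samples left of wild type, 1 point per library and a bar at the median. The grey band is the range of background thresholds, 90.5 to 127 counts; miR-32, miR-25, miR-363, miR-301a, miR-130b and miR-148b lie above it in all libraries.

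Ratios of a pair of counts within a library do not depend on scaling, and 2 of them were compared after the data were seen. The log2 ratio of miR-32 to miR-25 was -4.52, -4.36, -3.78, -5.12 and -5.39 in mutant 6 to 10, against -4.29 to -4.07 in wild type. The means of -4.63 ± 0.636 and -4.16 ± 0.0928 in mutant and wild type samples (SD, n = 5 each) differed by -0.48 (exact two-sided permutation p = 0.167, Benjamini-Hochberg adjusted p = 0.333 over 2 ratios). Of the mutant libraries, 4 had a lower ratio than every wild type library and mutant 8 a higher one. The ratio does not say which of the pair moved. Raw means, which are not adjusted for library totals, were 359.8 in both groups for miR-32. For miR-25 they were 8757 in mutant and 6380 in wild type libraries. Normalised means in mutant and wild type samples were 341 and 383 for miR-32, and 8183 and 6802 for miR-25. For miR-301a over miR-130b the means were -0.65 ± 0.190 and -0.74 ± 0.275 in mutant and wild type samples, a difference of 0.09 (exact permutation p = 0.563, adjusted p = 0.563, n = 5 each). The smallest p that 5 against 5 allows is 0.00794.

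Profiles most like those of the detected pair were sought among the other 115 kept miRNAs, by the mean absolute difference of log2 normalised counts over the 10 libraries after centring each miRNA. For miR-32 these were miR-423-3p (0.160), miR-139-5p (0.161) and miR-107 (0.167), where the median miRNA was at 0.341. All 3 had their lowest normalised mutant counts in mutant 9 and 10, as miR-32 did. For miR-301a they were miR-1944 (0.146), miR-148b (0.153) and miR-106b (0.162), against a median of 0.292, and all 3 had their highest count of the 10 libraries in mutant 9. These distances describe 10 libraries that share scaling factors, and a choice by likeness favours miRNAs that are low or high in the same libraries.

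Other miRNAs reported to target Bim, mostly of the miR-17~92 clusters and the miR-29 family, had 17 probes on the panel, of which 15 were kept. Of these, 7 had values above 0 and 8 below, and 0 passed in edgeR in either direction. Their median log2 fold change was -0.01, where that of all 116 miRNAs was 0.00 and 58 were above 0. The 15 values were not all near that median. They ran from -0.32 for miR-29b (edgeR adjusted p = 0.25) to 2.1 for miR-29c (edgeR adjusted p = 0.373). The 4 with the highest mean counts, which depend on the probe as well, were the joint miR-20a/miR-20b probe, at 17651 normalised counts with a log2 fold change of 0.01, the joint miR-106a/miR-17 probe, at 16603 (0.02), miR-19a at 9906 (-0.06) and miR-25 at 7492 (0.27).

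**Figure D4:**
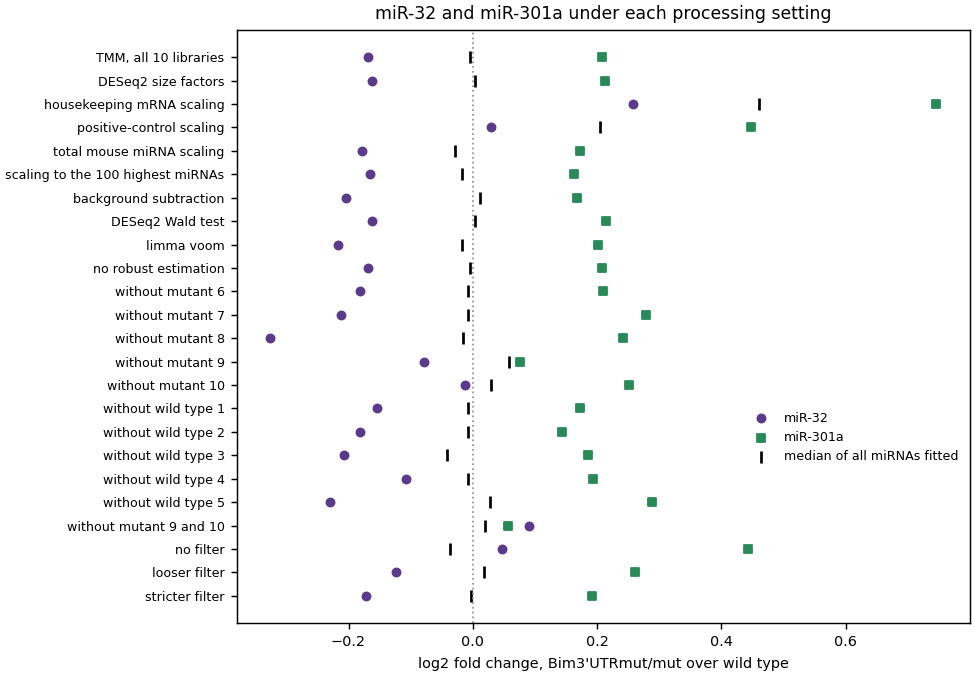
Log2 fold change, mutant over wild type (x axis), of miR-32 (circles) and miR-301a (squares) under each processing setting (rows), with the median of all miRNAs fitted as a bar. miR-301a lies above 0 in every setting shown, and miR-32 lies below 0 except under housekeeping scaling, positive-control scaling, no filter, and without mutant 9 and 10.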

How the data were processed

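Total RNA (100 ng a sample) was run on the nCounter after miRNeasy extraction and a purity filter, per the labels' protocols. The deposited tables hold raw whole-number counts per probe, the same in both tables for all 626 probes. What else the authors did is not stated in the labels or headers. Groups came from the sample titles. The members and lists were chosen with earlier results of these data known.

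Probes above the mean + 2 SD of the negative controls in at least 5 of 10 libraries were kept. Genotypes were compared with edgeR 4.0.16 in R 4.3.3: TMM scaling (factors from 0.872 to 1.11), then a quasi-likelihood test with robust estimation, and p-values adjusted by Benjamini-Hochberg with a threshold of 0.05. Members not kept were taken from the same fit with no filter. Intervals are approximate, with 8 degrees of freedom. The code was tested on simulated data. DESeq2 1.42.0 and limma 3.58.1 were alternatives, with other scalings, filters, background subtraction and libraries left out. RefSeq held a mature name for 442 of 566 mouse probes and for all 5 members. Named miRNAs are the members, probes with their seed and the 3 nearest profiles of each kept member. From the list of other miRNAs reported to target Bim, the 4 highest and those with the lowest and highest log2 fold change are named. The panel had no probe for the other arm of a member.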

Additional observations from a re-analysis of the deposited data

Results flagged for a closer look

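Among 32 groups of 5 values checked for the members and their relatives, 2 held a library far from the others, where chance gives about 1 in 20. Raw counts of miR-301b reached 136 in mutant 9, with the other mutant libraries between 73 and 86. Raw counts of miR-152 were 62 in wild type 2, with the other wild type libraries between 70 and 72, all below the background threshold.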

How the results depend on the processing

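No paired analysis was possible because the genotypes share no sample numbers. Of 116 miRNAs, edgeR called 0, DESeq2 called 5 and edgeR without mutant 9 and 10 called 5, and leaving out 1 library gave 0 to 1. miR-301a kept its sign in all 23 alternatives, and it passed in none (adjusted p 0.105 to 0.84). miR-32 passed in none either (0.343 to 0.98), and its sign turned under housekeeping scaling (0.258), positive-control scaling (0.029), no filter (0.047) and without mutant 9 and 10 (0.09); the cause was not tested. With 1 library left out, log2 fold changes ran from -0.326 to -0.013 for miR-32, 0.075 to 0.289 for miR-301a, -0.688 to -0.267 for miR-148a, -1.218 to -0.269 for miR-221 and -0.681 to -0.121 for miR-222. miR-221 passed without mutant 9 and 10 (-1.68), the mutant libraries with its highest counts, a choice made with the counts known. Background subtraction, which sets values under 1 to 1, put miR-222 at 1.47 and miR-221 at -0.019. For miR-222 every library but mutant 10 was set to 1, and for miR-221 mutant 6, 7 and 8 were. All miR-148a values were set to 1, so its -0.004 compares nothing. With the mean of the negative controls alone as the threshold, miR-221 was above it in 7 libraries and miR-222 in 1. For miR-148a, miR-221 and miR-222 the depth allows no statement on level beyond being at or near background.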
